A study of Mus musculus with 18 samples.

Results

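The metallothioneins and the machinery of zinc transport were followed in the retinal pigment epithelium (RPE) of *rd1* mice, as a set of 9 genes. They were the metallothioneins *Mt1*, *Mt2* and *Mt3*, the zinc-sensing transcription factor *Mtf1*, the zinc and manganese exporters *Slc30a1* and *Slc30a10*, and the importers *Slc39a4*, *Slc39a8* and *Slc39a14*. All 9 were found among the 47729 genes of the count table, and they were chosen by function, with earlier results of these data known.

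Mice of the *rd1* strain lack a working *Pde6b*, and their rods die within weeks of birth, so the RPE studied here lay under a degenerating retina. In each of 9 mice at P40, one eye (called Best1-Nrf2) had received AAV-Best1-Nrf2, in which a human *NFE2L2* cDNA is driven by the human Best1 promoter, mixed with AAV-Best1-GFP. The other eye (called control) had received AAV-Best1-GFP and no Nrf2 vector, which gave 18 libraries of amplified poly(A) RNA, 9 per group. The count of 9 *rd1* pairs rests on the labels, since the methods of the study describe fewer pairs for this age and strain, and the reason is not given in the sources used here. The same methods also describe pairs of wild-type CD1 mice at P40. Whether any of the 9 pairs came from such mice was not tested. The Best1 promoter is active in the RPE, and both groups carried the GFP vector and the *rd1* mutation. Nrf2 and the larger total amount of AAV came together in the Best1-Nrf2 eyes, and their effects cannot be told apart. The RNA came from the eyecup after the retina had been removed. The question was whether genes that bind or move zinc responded when Nrf2 was overexpressed in these cells.

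Metallothioneins are small cysteine-rich proteins that bind zinc and copper and can scavenge reactive oxygen species. Free zinc is sensed by MTF1, which binds metal response elements (MREs) in the promoters of *Mt1*, *Mt2* and *Slc30a1*. Glucocorticoids and oxidative stress also induce *Mt1* and *Mt2*, whereas *Mt3* is known mainly from the brain and is not a classical metal-inducible gene. Proteins of the Slc30 family (ZnT) lower cytosolic zinc by moving it out of the cell or into vesicles, and proteins of the Slc39 family (ZIP) bring it in. The RPE is rich in zinc.

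The 3 metallothioneins are neighbors on chromosome 8, and the sequences before their starts are shown because the genes lie side by side but did not change alike. *Mt3* lies at chr8:94152607-94154146, *Mt2* at chr8:94172664-94173568 and *Mt1* at chr8:94179082-94180327, all on the plus strand of GRCm38. Each line below gives the 250 bases before the RefSeq start (GRCm38.p6, plus strand, 5′ to 3′), with matches to the core of the MRE in capitals.
Mt1, chr8:94178839-94179088: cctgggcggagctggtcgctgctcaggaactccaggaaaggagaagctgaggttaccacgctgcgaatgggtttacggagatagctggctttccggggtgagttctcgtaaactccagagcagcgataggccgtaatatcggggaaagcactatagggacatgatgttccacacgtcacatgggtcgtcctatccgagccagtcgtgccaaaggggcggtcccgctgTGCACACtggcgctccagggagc
Mt2, chr8:94172368-94172617: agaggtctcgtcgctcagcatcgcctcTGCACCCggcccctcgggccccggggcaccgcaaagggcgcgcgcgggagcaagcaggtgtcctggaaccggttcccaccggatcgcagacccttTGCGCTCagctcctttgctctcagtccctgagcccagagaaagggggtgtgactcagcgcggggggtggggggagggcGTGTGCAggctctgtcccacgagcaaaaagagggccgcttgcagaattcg
Mt3, chr8:94152357-94152606: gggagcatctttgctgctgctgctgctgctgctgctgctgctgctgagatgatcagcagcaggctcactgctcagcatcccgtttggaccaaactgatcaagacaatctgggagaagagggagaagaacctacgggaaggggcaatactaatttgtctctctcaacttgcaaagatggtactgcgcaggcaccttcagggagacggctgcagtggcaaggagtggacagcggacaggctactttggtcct

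The core was searched as TGCACNC or TGCGCNC on both strands, in a window from 250 bases before to 50 bases after each start. The *Mt2* window held 4 matches and the *Mt1* window 3, while the *Mt3* window held 1. Counted from 0 at the start, those of *Mt2* began at positions -223, -128, -50 and 4, those of *Mt1* at -23, 2 and 20, and that of *Mt3* at 27, so that none lay in the printed sequence of *Mt3*. Of 32851 promoter windows searched in the same way, 25.7% held at least 1 match, 1.97% at least 3 and 0.517% at least 4. The antioxidant response element, the site bound by Nrf2, was searched as TGACNNNGC on both strands. *Mt2* held 1 such match, TGACTCAGC at position -79, *Mt1* and *Mt3* held none, and 12.4% of all windows held at least 1. A match is a string of letters and not a known binding site. Mouse annotation gives 3 starts for *Mt1* that span 159 bp, 2 for *Mt2* that span 196 bp and 2 for *Mt3* that span 139 bp. Only 1 RefSeq start of each gene was used here, and that of *Mt2* lies before its lowest annotated start, 94172664. The matches and their positions depend on this choice. Among the other members with an entry, *Slc30a1* had 2 MRE matches and 1 antioxidant match, *Slc30a10* had 3 MRE matches of which a pair overlapped, *Mtf1* had none of either, and 1 of the 2 windows of *Slc39a8* had 1 MRE match and the other 1 antioxidant match.

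The libraries held 18956748 to 49598700 counts. *Nfe2l2*, the targeted gene, was higher in all 9 Best1-Nrf2 eyes than in any control eye, at 275 to 704 CPM (counts scaled to the library size; median, 457) against 76.7 to 134 CPM (median, 83.0). How far reads of the human cDNA count toward the mouse gene was not tested. As a sum, RPE markers were abundant in every library. Their summed level ran from 14642 to 72439 CPM in control eyes (median, 45239). With Best1-Nrf2 it ran from 18842 to 81633 CPM (median, 23920), and it was higher there in 4 of 9 mice and lower in 5. A few libraries stood apart. Both eyes of mouse 3 had the highest *Mt1* and *Mt2* of their groups, the control eye of mouse 8 had the smallest library, and inner retina neuron markers peaked in the Best1-Nrf2 eye of mouse 6, so results are also given without these mice. Because the libraries are bulk RNA, fewer cells of a type and less RNA per cell cannot be told apart.

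Of the 9 members, 8 passed the filter on low counts and were tested between the eyes of each mouse with edgeR. *Mt3* rose, at a Benjamini-Hochberg adjusted p under 0.05 over the 18958 genes tested, and no member fell. Over all genes tested, 4.25% were called, 3.12% as higher and 1.13% as lower. The median log2 fold change of the 8 members was -0.07, beside -0.03 for all genes, and single members went in both directions.

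*Mt3* was the one metallothionein past the threshold in this model. Its level in control eyes ran from 73.8 CPM in mouse 4 through a median of 176 to 864 CPM in mouse 3. In Best1-Nrf2 eyes it ran from 369 CPM in mouse 1 through a median of 927 to 2473 CPM in mouse 3. In 6 of the 9 Best1-Nrf2 eyes *Mt3* was above the highest control eye, and the ranges overlapped through the control eyes of mice 3 and 5. For no tested member were the groups apart, as they were with Best1-Nrf2 higher for 1.05% and lower for 0.116% of all genes tested. Every mouse had more *Mt3* in its Best1-Nrf2 eye, from 1.94-fold in mouse 1 to 14.5-fold in mouse 4. Of all genes tested, 3.12% were higher and 1.22% lower in all 9 mice, and *Mt3* was the one member with such a pattern.

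Mean *Mt3* went from 252 ± 252 to 1026 ± 602 CPM (SD, n = 9 per group), a log2 fold change of 2.27 (SE, 0.35; edgeR adjusted p = 0.00231), or 4.84-fold with a 95% interval of 2.85 to 8.22. Among the 18958 genes tested, that placed *Mt3* at the 98.9th percentile of log2 fold change. Leaving out each mouse in turn gave log2 fold changes from 2.08 to 2.50, with edgeR adjusted p from 0.00218 to 0.00978. Without mice 6 and 8 it was 1.93 (edgeR adjusted p = 0.00849). The call was lost when a covariate for rod and cone markers (log2 fold change of *Mt3*, 3.52, edgeR adjusted p = 0.108) or for macrophage and microglia markers (2.32, edgeR adjusted p = 0.844) was added. These markers moved between the eyes as well: 10 of 11 cone markers fell and 12 of 20 macrophage and microglia markers rose.

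Of 9 mice, 7 had less *Mt2* in the Best1-Nrf2 eye, but the difference did not pass the threshold. Control eyes held 114 to 2401 CPM (median, 235), and Best1-Nrf2 eyes held 73.4 to 2284 CPM (median, 136). The ranges overlapped almost wholly. Both eyes of mouse 3 were far above the rest, and the next highest values were 816 CPM among control eyes and 403 CPM among Best1-Nrf2 eyes. Mean levels were 566 ± 730 and 407 ± 713 CPM (SD, n = 9 each). The log2 fold change of *Mt2* was -0.80 (SE, 0.34), with a 95% interval of -1.54 to -0.07, an unadjusted p of 0.0351 in edgeR and an adjusted p of 0.323. Leaving out each mouse in turn gave -1.02 (without mouse 6, edgeR adjusted p = 0.0778) to -0.58 (without mouse 5, edgeR adjusted p = 0.552), with -0.87 without mouse 3 (edgeR adjusted p = 0.39) and -1.06 without mice 6 and 8 (edgeR adjusted p = 0.109). It was -0.48 without the block for mouse, -0.29 with the macrophage covariate and 0.38 with the rod and cone covariate, none past the threshold. Of the 31-base words of the *Mt2* exons, 58.1% also occur in other annotated genes, nearly all of them in the antisense gene *Gm45774*. The deposited counts hold no entry for *Gm45774*. The kit is not described as stranded, so reads of the pair could not be separated.

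*Mt1* had the highest mean CPM of the 9 genes in both groups, and its direction varied between mice. It ran from 597 through a median of 1173 to 12691 CPM in control eyes and from 503 through 965 to 14916 CPM in Best1-Nrf2 eyes. Mouse 3 again supplied both maxima, where *Mt1* alone took 1.044% of all counts in the control eye and 1.065% in the Best1-Nrf2 eye. The next highest value was 4350 CPM, in the control eye of mouse 5. *Mt1* was lower in 6 mice and higher in mice 3, 4 and 6, with within-mouse differences between -2.20 and 1.48 on the log2 scale. Its log2 fold change was -0.38 (SE, 0.37; edgeR adjusted p = 0.784), and the 95% interval of -1.18 to 0.42 spans 0.441-fold to 1.33-fold. Leaving out each mouse in turn gave -0.61 (without mouse 6, edgeR adjusted p = 0.402) to -0.16 (without mouse 5, edgeR adjusted p = 0.921), with -0.22 and -0.24 without mice 1 and 2, -0.43 without mouse 3 and -0.66 without mice 6 and 8 (edgeR adjusted p = 0.397). It was -0.12 without the block for mouse, 0.074 with the macrophage covariate and 0.86 with the rod and cone covariate, none past the threshold.

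**Figure D1:**
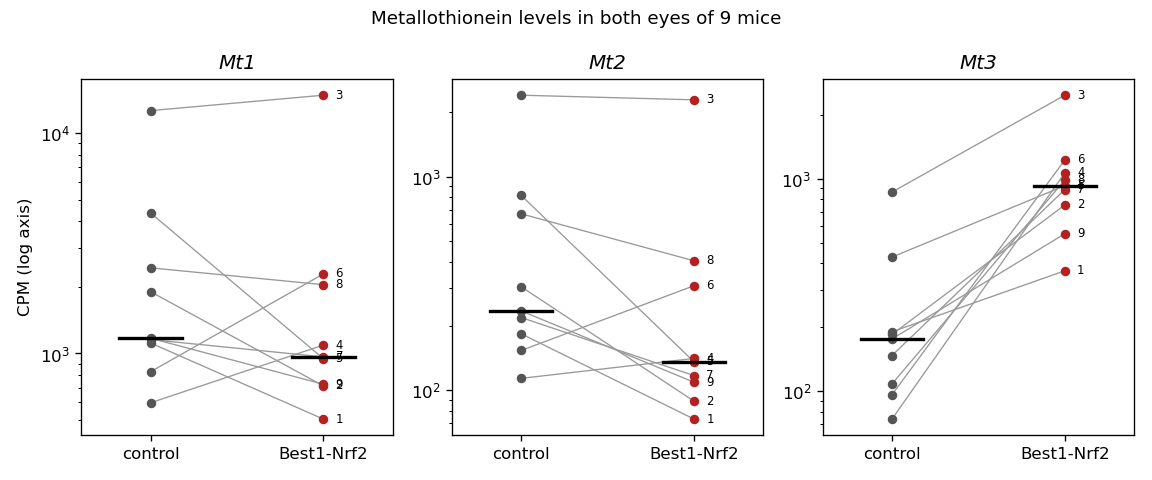
Level of each metallothionein in CPM (log axis, a separate scale for each panel) in the control and Best1-Nrf2 eye of 9 mice. Lines join the eyes of a mouse, numbers name the mouse and bars mark the group median. All 9 lines rise for *Mt3*, whereas 6 fall for *Mt1* and 7 for *Mt2*, and mouse 3 is the highest in both groups of every panel.

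The changes of *Mt1* and *Mt2* differed within mice. The within-mouse change of *Mt1* was above that of *Mt2* in 9 of 9 mice, by 0.42 ± 0.14 on the log2 scale (SD, n = 9 mice; 2-sided exact sign-flip permutation test, p = 0.0039, the smallest possible with 9 mice). The within-mouse change of *Mt3* lay above that of *Mt1* by 2.66 ± 0.74 and above that of *Mt2* by 3.08 ± 0.80 (SD, n = 9 mice), which is given as a description with no test because these contrasts were chosen after the values of *Mt3* were seen. The spread of the *Mt1*-*Mt2* contrast was small although each gene alone varied widely: the within-mouse differences of *Mt2* ran from -2.59 to 1.01.

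Compared per length, the order of the metallothioneins differed between the eyes. In control eyes the median RPKM (CPM divided by the exon length in kilobases) was 942 for *Mt1*, 400 for *Mt2* and 165 for *Mt3*, and *Mt3* was below *Mt2* in all 9 eyes. In Best1-Nrf2 eyes the median RPKM was 774 for *Mt1*, 231 for *Mt2* and 869 for *Mt3*, and *Mt3* was above *Mt2* in 8 of 9 eyes and above *Mt1* in 4. The place of *Mt3* beside *Mt1* depended on the length used: with the length of the first-numbered Ensembl transcript of each gene, the medians in Best1-Nrf2 eyes were 1729 RPKM for *Mt3* and 1757 RPKM for *Mt1*, and *Mt3* was above *Mt1* in 2 eyes and above *Mt2* in all 9.

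*Mt4*, the metallothionein of stratified epithelia and a neighbor of *Mt3* on the chromosome, had 12 counts in all 18 libraries together and was not tested. *Mt1* and *Mt3* shared no 31-base word with each other or with any other annotated gene.

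The zinc sensor *Mtf1* was at a low and steady level. It ran from 14.3 to 32.1 CPM in control eyes (median, 20.4) and from 15.8 to 27.3 CPM in Best1-Nrf2 eyes (median, 18.6). The log2 fold change of *Mtf1* was -0.12 (SE, 0.20; edgeR adjusted p = 0.900), with a 95% interval of -0.56 to 0.31, and 7.77% of its 31-base words lie in *1110065P20Rik* on the opposite strand.

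*Slc30a1*, which encodes the plasma membrane exporter ZnT1 and is a target of MTF1, was at 11.97 to 36.2 CPM in control eyes (median, 17.97) and 7.57 to 33.1 CPM in Best1-Nrf2 eyes (median, 26.2). It was higher in 6 of 9 mice, and the groups overlapped over most of their range. The log2 fold change of *Slc30a1* was 0.21 (SE, 0.23; edgeR adjusted p = 0.818, 95% interval -0.29 to 0.71). Leaving out each mouse in turn gave 0.11 (without mouse 5) to 0.38 (without mouse 6), with edgeR adjusted p of 0.330 or more, and its direction turned with the rod and cone covariate (-0.33) and the macrophage covariate (-0.13). An antisense gene, *1700034H15Rik*, holds 8.38% of its 31-base words. *Slc30a10*, which encodes a manganese exporter, was close to absent: it had 54 counts over all control and 84 over all Best1-Nrf2 libraries, with 3 control and 6 Best1-Nrf2 libraries at 0, and it was not tested. Its highest level, 1.60 CPM, was in the Best1-Nrf2 eye of mouse 6, followed by 0.620 CPM in that of mouse 2.

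*Slc39a4*, which encodes the intestinal zinc importer ZIP4, had the highest level per length among the transporters of the set. It was at 29.2 to 112 CPM in control eyes (median, 68.6) and 40.6 to 149 CPM in Best1-Nrf2 eyes (median, 103), and 7 of 9 mice had more in the Best1-Nrf2 eye. The exceptions were mice 1 and 6, and in mouse 6 the level dropped from 90.4 to 40.6 CPM. *Slc39a4* had a log2 fold change of 0.43 (SE, 0.23; edgeR adjusted p = 0.498, 95% interval -0.08 to 0.94). Leaving out each mouse in turn gave 0.32 to 0.62, the highest without mouse 6 (edgeR adjusted p = 0.072). Its direction turned with the rod and cone covariate (-0.36) and the macrophage covariate (-0.27), neither past the threshold.

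*Slc39a8* and *Slc39a14* encode ZIP8 and ZIP14, importers of zinc, manganese and iron. *Slc39a8* was the most variable of the tested transporters between the eyes of a mouse, at 2.53 to 25.6 CPM in control (median, 19.8) and 2.90 to 33.8 CPM in Best1-Nrf2 eyes (median, 17.6). The Best1-Nrf2 eyes fell apart into low and high values, with 3 at 2.90 to 3.19 CPM in mice 3, 4 and 6 and 1 at 8.58 CPM in mouse 7, while the other 5 were at 17.6 CPM or above. Its log2 fold change was -0.03 (SE, 0.57; edgeR adjusted p = 0.993), and the 95% interval ran from -1.27 to 1.21, or 0.415-fold to 2.31-fold. *Slc39a14* was at 12.1 to 40.3 CPM in control (median, 21.8) and 8.16 to 37.1 CPM in Best1-Nrf2 eyes (median, 21.9). The log2 fold change of *Slc39a14* was -0.10 (SE, 0.25; edgeR adjusted p = 0.941, 95% interval -0.65 to 0.45).

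**Figure D2:**
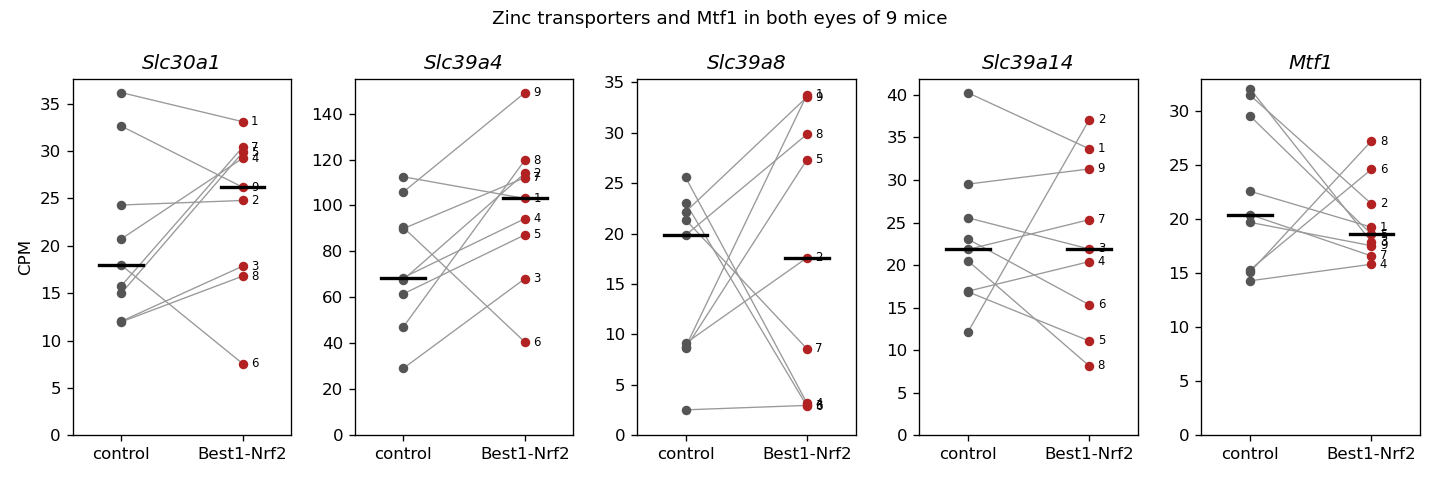
Levels of the tested zinc transporters and of *Mtf1* in CPM (linear axes from 0, a separate scale for each panel) in both eyes of 9 mice, with lines, numbers and median bars as for the metallothioneins. The groups overlap in every panel, and lines cross in both directions.

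**Figure D3:**
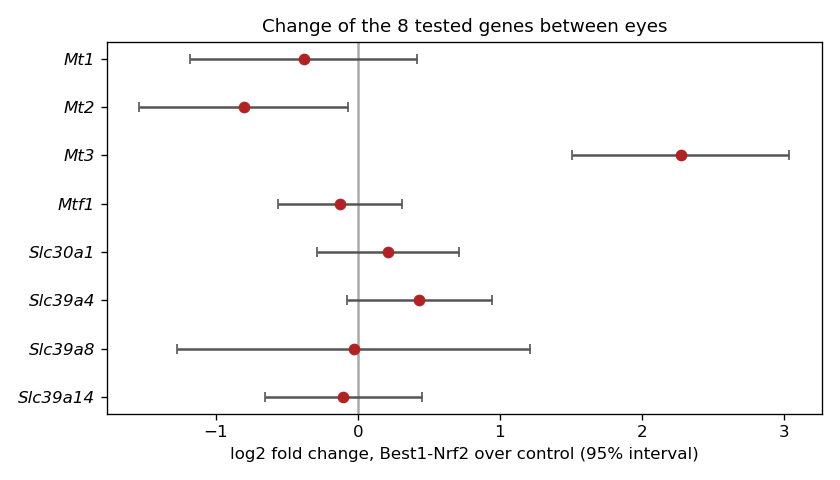
Log2 fold change of the 8 tested members, Best1-Nrf2 over control, from edgeR with mouse as a block; bars are 95% intervals and the gray line marks no change. The interval of *Mt3*, 1.51 to 3.04, lies apart from the others; that of *Mt2* ends at -0.07, and those of the other 6 span 0.

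In control eyes the median RPKM fell in the order *Mt1* (942), *Mt2* (400), *Mt3* (165), *Slc39a4* (22.1), *Slc30a1* (3.43), *Slc39a8* (2.59), *Mtf1* (2.30), *Slc39a14* (2.07) and *Slc30a10* (0.0244). Neighbors in that order were compared over the 9 control eyes by 2-sided exact sign-flip permutation tests, adjusted over 8 pairs. The first 5 genes differed from each other and from *Slc39a8* in step (exact permutation test, adjusted p = 0.00625 for 4 pairs and 0.0156 for *Slc30a1* against *Slc39a8*). *Slc39a8* and *Mtf1* did not differ beyond their spread (exact permutation test, adjusted p = 0.415), nor did *Mtf1* and *Slc39a14* (0.426). *Slc39a14* was above *Slc30a10* in 9 of 9 eyes (exact permutation test, adjusted p = 0.00625). The top 4 places held with other gene lengths and without control replicate 8, whereas the order of places 5 to 8 changed. With the length of the longest or of the first-numbered transcript, the median of *Slc39a8* was above that of *Slc30a1*.

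Next, the members were related to the size of the Nrf2 response. Within-mouse differences in log2 CPM of *Nfe2l2* ran from 1.13 to 3.08. None of 8 relations with the members passed the threshold (exact permutation tests over 9 mice, adjusted p of 0.577 or more for Pearson's r and 0.531 or more for Spearman's rho). For *Mt3*, r was -0.07 and rho 0.05 (exact permutation p = 0.860 and 0.912), and r was -0.21 without the 2 mice farthest from the median. The largest r was -0.58, for *Mtf1* (exact permutation p = 0.104; rho = -0.38, p = 0.313). For *Slc30a1*, r was 0.37 and rho 0.58 (exact permutation p = 0.318 and 0.108), and r was 0.82 without the 2 mice.

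Levels of *Mt1* and *Mt2* moved together over the 18 libraries, and with other short transcripts. The 5 genes with the pattern most like *Mt1*, by Pearson's r of log2 CPM among the 11809 genes whose mean log2 CPM was at least 2, were *Atp5mpl* (0.982), *Mt2* (0.981), *Fcor* (0.978), *S100a13* (0.977) and *Gm5914* (0.977). The longest annotated transcripts of these 5 measure 612, 511, 392, 715 and 375 bp in turn. *Mt3* ranked 2866th, with r = 0.43. Over the 100 genes most like *Mt1*, the median length of the longest transcript was 1063 bp, beside 3390 bp over the 11809 genes.

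After these lengths had been seen, a share of the protein-coding counts was therefore computed for each library. It was that of 2247 protein-coding genes with no transcript of 1000 bp or more. All 9 members and the genes of the mitochondrial genome were left out of this share. It ran from 4.78% to 19.1% in control (median, 8.07%) and from 6.00% to 19.8% in Best1-Nrf2 eyes (median, 9.72%), and was highest in both eyes of mouse 3. In 7 of 9 mice the share was higher on the Best1-Nrf2 side (2-sided exact sign-flip permutation test, p = 0.168). Because the share was built after the neighbors of *Mt1* were seen to be short, its correlations with the metallothioneins restate that observation and are given as descriptions with no test.

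For the within-mouse differences over 9 mice, the share had r = 0.88 and rho = 0.78 with *Mt1*, and r = 0.62 without the 2 mice farthest from the median. With *Mt2* it had r = 0.88 and rho = 0.78, and r = 0.61 without 2 mice. With *Mt3* it had r = 0.75 and rho = 0.70, and r = 0.59 without 2 mice. Over the 9 control eyes r was 0.92 for *Mt1* and 0.93 for *Mt2*, with rho = 0.82 for both, and over the 9 Best1-Nrf2 eyes r was 0.86 and 0.88, with rho = 0.97 and 1. For *Mt3* r was 0.84 and rho 0.93 over Best1-Nrf2 eyes. Over control eyes the relation of *Mt3* rested on 2 eyes, since r was 0.74 and rho 0.42, and r was -0.03 without them. The sequencing run of a library is not given in the labels, so no value within runs could be had.

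With the logarithm of this share added to the model, the log2 fold change was -1.29 for *Mt2*, -0.89 for *Mt1* and 1.88 for *Mt3*. These are given as values with no test, because the share, although it contains no member, was built after the pattern of *Mt1* was seen. The direction of *Mt1* and *Mt2* depended on the covariate: with the mean of rod and cone markers in its place, *Mt1* was 0.86 and *Mt2* 0.38 (edgeR adjusted p = 0.583 and 0.811). The short-gene model called 1120 genes higher and 556 lower in place of 592 and 214.

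**Figure D4:**
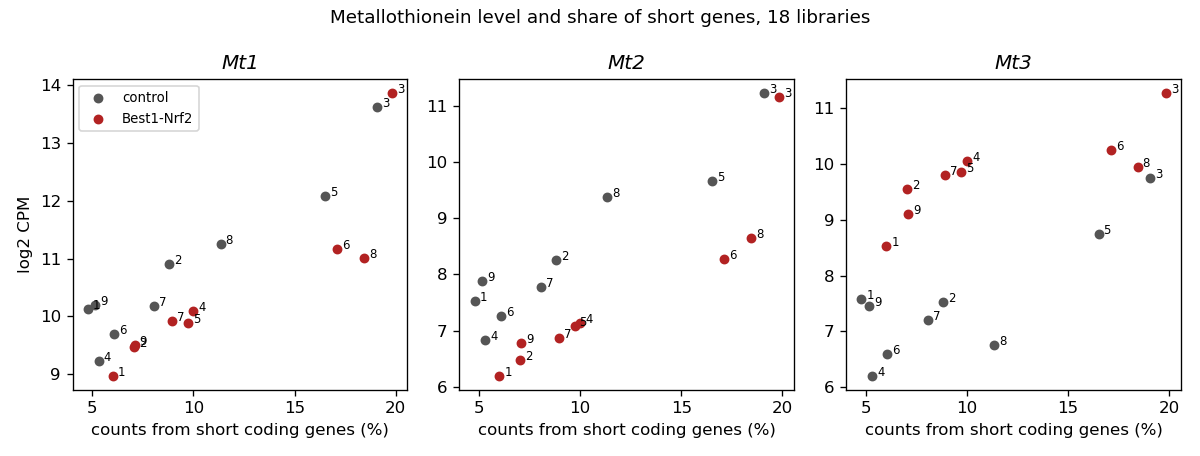
Log2 CPM of each metallothionein against the share of counts from short protein-coding genes (%), 1 point per library, labeled by mouse, gray for control and red for Best1-Nrf2. *Mt1* and *Mt2* climb with the share from 4.78% to 19.8%; at a like share, *Mt3* is higher in Best1-Nrf2 eyes and *Mt2* lower.

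Markers of other cells also moved between the eyes. Among 20 macrophage and microglia markers, 12 rose and none fell, and their summed level was 294 to 633 CPM in control eyes and 389 to 1126 CPM with Best1-Nrf2. Of 11 cone markers, 10 fell and none rose, with a summed level of 330 to 2350 CPM in control eyes and 63.0 to 558 CPM with Best1-Nrf2. Of 10 tested rod markers 3 fell and 1 rose, *Rom1*, with a summed level of 579 to 1284 CPM in control eyes and 552 to 975 CPM with Best1-Nrf2 that was higher in 5 of 9 mice. Of 10 tested fibroblast and sclera markers 1 rose, *Col3a1*, and their summed level, 266 to 807 CPM in control eyes and 533 to 1104 CPM with Best1-Nrf2, was higher in 8 of 9 mice. None of 10 endothelial markers was called. Of 20 RPE markers 7 fell, and of 14 Müller glia and astrocyte markers 1 fell, *Rlbp1*, which is also an RPE gene. No gene of 11 tested inner retina neuron markers was called, and their summed level was 317 to 1173 CPM in control eyes and 527 to 1744 CPM with Best1-Nrf2. None of these lists had a marker at 0 in all libraries. With the mean of rod and cone markers in the model 15 genes were called higher and 0 lower, and with the mean of macrophage and microglia markers 33 higher and 2 lower. In these models the log2 fold change of *Mt3* was 3.52 (SE, 0.68) and 2.32 (SE, 0.88) in turn, without a call in either. *Nfe2l2*, whose human counterpart the vector carries, also lost its call with the rod and cone markers in the model (log2 fold change, 1.78, edgeR adjusted p = 0.207). It kept its call with the macrophage and microglia markers (2.86, edgeR adjusted p = 0.0476). The part of these cells in the rise of *Mt3* was not tested further.

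Other genes of zinc handling gave no call. Of 8 other Slc30 genes 5 were tested and none was called (median log2 fold change, -0.01), and of 11 other Slc39 genes 10 were tested and none was called (median, 0.08). The most abundant of these were *Slc39a7*, which encodes ZIP7 and releases zinc from the endoplasmic reticulum, and *Slc39a12*, which encodes ZIP12. *Slc39a7* went from 132 ± 43.6 to 151 ± 46.8 CPM (SD, n = 9 each, log2 fold change 0.22, edgeR adjusted p = 0.695). *Slc39a12* was at 123 ± 62.2 and 98.9 ± 27.3 CPM (SD, n = 9 each, log2 fold change -0.16, edgeR adjusted p = 0.896). Of 5 other targets of MTF1, none was called (median, 0.01).

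Copper and manganese, which metallothioneins bind or these transporters share, were examined through their own genes. None of 11 copper genes was called (median, -0.01). The copper chaperone *Atox1* went from 269 ± 256 to 356 ± 521 CPM (SD, n = 9 each, log2 fold change 0.05, edgeR adjusted p = 0.980), and the copper importer *Slc31a1* was at 145 ± 50.4 and 140 ± 30.04 CPM (SD, n = 9 each, log2 fold change -0.01, edgeR adjusted p = 0.991). Of 6 manganese genes 1 rose, *Slc40a1*, which encodes ferroportin, an exporter of iron that can also carry manganese. *Slc40a1* went from 2.34 ± 1.60 to 37.5 ± 23.4 CPM (SD, n = 9 per group; log2 fold change 3.89, SE 0.43, edgeR adjusted p = 0.000231) and was higher in 9 of 9 mice.

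**Figure D5:**
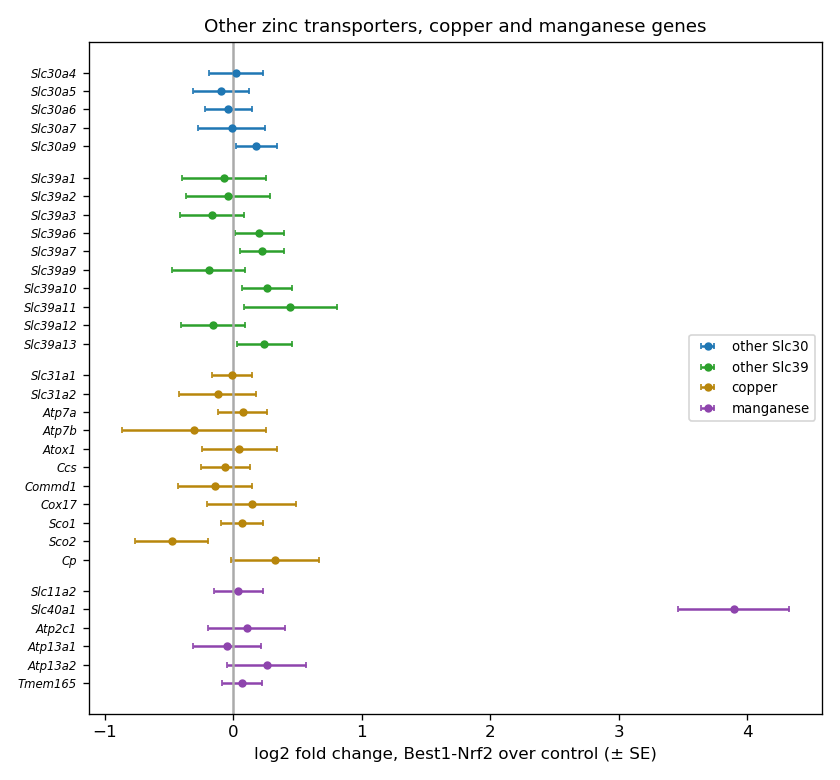
Log2 fold change (± SE), Best1-Nrf2 over control, of the tested genes of the other zinc transporter, copper and manganese lists, colored by list. *Slc40a1*, at 3.89, stands apart, and the others lie near 0.

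Inducers of *Mt1* and *Mt2* other than zinc were looked at through lists of their usual targets. Of 9 glucocorticoid-responsive genes, 1 fell and none rose (median, -0.25). The median of their summed level was 1850 CPM in control eyes and 1231 CPM with Best1-Nrf2, and the sum was lower in 8 mice and higher in 1. The gene that fell, *Errfi1*, a feedback inhibitor of EGF receptor signaling, went from 48.3 ± 8.38 to 32.3 ± 12.8 CPM (SD, n = 9 each, log2 fold change -0.66, edgeR adjusted p = 0.0382) and was lower in 9 of 9 mice. Of 9 tested acute phase genes downstream of IL-6 and STAT3, 1 rose and none fell (median, 0.39). This was *Cebpb*, a transcription factor of acute phase genes, which went from 80.9 ± 18.04 to 154 ± 47.5 CPM (SD, n = 9 each, log2 fold change 0.90, edgeR adjusted p = 0.00371) and was higher in 9 of 9 mice. All 20 canonical Nrf2 targets tested rose (median, 2.13), but that list was chosen with these results known, so its count is not independent evidence. The 7 tested members other than *Mt3* had log2 fold changes from -0.80 to 0.43.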

How the data were processed

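RNA of the RPE was sequenced in both eyes of 9 *rd1* mice. The authors aligned reads to mm10 with STAR and counted them with featureCounts, and estimated transcript levels with Salmon 0.8.1 for tximport and DESeq2. The deposited table holds estimated counts per Ensembl gene as whole numbers, not scaled between libraries, and which counter made it is not given in the sources used here. Near-identical paralogs hold equal values, a sign of estimated counts, so paralog reads may have been split. No molecular identifiers are described. The lowest chi-square per degree of freedom over 72 pairs of libraries of a group was 50.8, so no such pair was a duplicate.

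Symbols were found for 47224 of 47729 gene IDs. Genes kept by filterByExpr held 99.9% of counts. Libraries were scaled by TMM, and edgeR 4.0.16 (R 4.3.3) quasi-likelihood tests were run with mouse as a block and Benjamini-Hochberg adjustment over all genes tested (threshold, 0.05). The pairing comes from the individual number in the labels; the deviations of both eyes of a mouse from the group means correlated at a median of 0.16 (range, -0.61 to 0.77; over 0.1 in 5 of 9 mice). Log2 CPM used a prior count of 2, and RPKM the union of annotated exons (GENCODE mouse release M21, GRCm38). Promoter windows are from RefSeq (GRCm38.p6) and were found for 7 of 9 members, not *Slc39a4* or *Slc39a14*. Single values were tested by exact permutation over all sign flips or all pairings, with ranks from scipy 1.17.1. The methods were tested on simulated data.

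Named are the 9 members, *Nfe2l2*, each gene past the threshold in the zinc, copper and manganese lists and the 4 others of these with the highest mean log2 CPM, the 5 genes most like *Mt1* in pattern, and, from the stress and marker lists, genes past the threshold where a list had 1 in that direction; *Mt4* and the genes closest to *Mt3* were named after their values were seen. Members and lists were chosen with earlier results of these data known. Alternatives were no replicate block, RLE and upper-quartile scaling, DESeq2 1.42.0, voom of limma 3.58.1, no filter, at least 10 counts in every library, marker covariates, other gene lengths, a prior count of 0.5, and each mouse left out. The short-gene covariate, the fit without mice 6 and 8, first-numbered transcript lengths and the order without control replicate 8 were added after the data had been seen.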

Additional observations from a re-analysis of the deposited data

Results flagged for a closer look

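Each tested member was screened within each group for a library far from the other 8 by Dixon's criterion on log2 CPM. Of 16 groups screened 4 held such a library, and chance alone gives about 0.8. *Mt1* was highest of its group in the Best1-Nrf2 eye of mouse 3, at 13.86, where the next was 11.17. *Mt2* was also highest there, at 11.16, with the next at 8.66. The control eye of mouse 3 was close to these levels (13.63 and 11.23) and its gap to the next eye did not pass the criterion, because that of mouse 5 lay between. In the Best1-Nrf2 eye of mouse 6, *Slc30a1* was the lowest of its group, at 2.93, and the next was 4.08. *Slc39a8* was lowest in the control eye of mouse 3, at 1.37, where the next was 3.12. The share of counts from short genes was 19.1% and 19.8% in the eyes of mouse 3 and 17.1% in the Best1-Nrf2 eye of mouse 6. It was also 18.4% in the Best1-Nrf2 eye of mouse 8 and 16.5% in the control eye of mouse 5, which met the criterion for no gene. Its part in these values was not tested.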

How the results depend on the processing

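Over 20 alternatives *Mt3* stayed higher in each (log2 fold change, 1.88 to 3.52) and lost its call in 2, the rod and cone covariate and the macrophage covariate, where 0 members were called. Without the replicate block, 563 genes were called higher and 179 lower, *Mt3* was 2.03 (edgeR adjusted p = 0.0123), *Mt1* was -0.12, *Mt2* -0.48, and *Slc39a8* turned to 0.18; the block changed no call of a member. DESeq2 called 940 higher and 538 lower, with *Mt3* still called. The rod and cone covariate left 15 higher and 0 lower and turned *Mt1* to 0.86, *Mt2* to 0.38, *Mtf1* to 0.61, *Slc30a1* to -0.33 and *Slc39a4* to -0.36, and it moved *Slc39a8* to -1.94 and *Slc39a14* to -0.85 (neither called). The macrophage covariate left 33 higher and 2 lower and turned *Mt1* to 0.074, *Slc30a1* to -0.13, *Slc39a4* to -0.27 and *Slc39a14* to 0.17, and it moved *Mt2* to -0.29, *Mtf1* to -0.32 and *Slc39a8* to -1.27 (none called). The short-gene covariate gave 1120 higher and 556 lower, called 2 members lower (*Mt1* and *Mt2*, from whose pattern the share was built, so that these calls carry no weight), and turned *Slc39a8* to 0.51 and *Slc39a14* to 0.030. Without mice 6 and 8, 764 genes were higher and 366 lower, *Slc39a8* was 0.26 and *Slc39a14* 0.15. With voom and with no filter *Slc39a8* was 0.0012 and 0.0014. Leaving out each mouse in turn gave 416 (without mouse 7) to 726 (without mouse 6) genes higher and 116 (without mouse 1) to 320 (without mouse 6) lower, with 1 member higher and 0 lower each time. Over the 9, *Mtf1* ran from -0.24 to 0.0029 (without mouse 3), *Slc39a14* from -0.30 to 0.055 (without mouse 8), and *Slc39a8* from -0.28 to 0.32, with 0.32, 0.31 and 0.17 without mice 4, 6 and 7. None of these reversed values passed the threshold in either direction, and the cause of these changes was not tested. In control eyes 5 or 6 of 8 neighboring pairs passed under each gene length, scaling and set of eyes tried, but the pairs compared changed with the order. A prior count of 0.5 left the *Mt1*-*Mt2* contrast at 0.42 and 0 relations with *Nfe2l2* past the threshold. Intervals and counts cover the spread between these mice, and the depth of *Slc30a10* allows no comparison.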

Other observations

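*Mt3* had its own set of genes with a like pattern, computed after its values were seen and over both groups, so that genes called between the eyes are favored. By Pearson's r of log2 CPM over the 18 libraries, the 5 closest of 11809 genes were *Kif2a* (0.969), *Dnase2a* (0.954), *2210408F21Rik* (0.944), *Gpx4* (0.943) and *2810433D01Rik* (0.941), whose longest transcripts measure 5304, 4073, 1133, 995 and 1045 bp in turn. *Kif2a*, which encodes a microtubule-depolymerizing kinesin, had a log2 fold change of 2.34 (edgeR adjusted p = 0.000573). *Dnase2a*, which encodes a lysosomal DNase, had a log2 fold change of 0.90 (edgeR adjusted p = 0.0146).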
